A study of Homo sapiens with 12 samples.

Results

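The genes described here encode coagulation factors and their inhibitors: F2, F5, F7, F10, KNG1, SERPINC1, PROC, PROS1 and PLG. They are 9 secreted liver proteins of blood clotting, taken by symbol and not by a threshold on a measured value. The choice was made with earlier results of these data known. The shares and medians below therefore describe this set and are no test of it. Of the 9 symbols 8 were among the 10940 genes with deposited counts, and all 8 passed the filter on low counts, while PLG was not analysed here. HepG2, an established human cell line derived from a liver cancer, was used with the genotype WT in every group. The cells were seeded in EMEM (Eagle's minimum essential medium), their maintenance medium, and 24 h later were washed and given 1 of 4 media. These were fresh EMEM, Plasmax (a medium composed after human plasma), Plasmax lacking trace elements (Plasmax-TE), and the last with iron added back (Plasmax-TE+Fe). Each medium contained 10% heat-inactivated fetal bovine serum and was renewed after 48 h, and cells were harvested 96 h after the switch. Messenger RNA was counted from its 3′ end in 3 libraries per medium, 12 in all.

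Blood clots when a chain of proteases, circulating as inactive precursors made mainly by hepatocytes, activate one another until thrombin turns fibrinogen into fibrin. Factor VII bound to tissue factor starts the chain, factor X with its cofactor factor V turns prothrombin into thrombin, and antithrombin and the protein C pathway restrain it. Prothrombin, factors VII and X, protein C and protein S need vitamin K, since the liver attaches carboxyl groups to their glutamates before secretion. Plasmin, made from plasminogen, later dissolves the fibrin.

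Total counts per library ran from 1562125 to 2384090, which makes a single count equal to 0.419 to 0.640 CPM, the unit of all levels below (counts scaled to the same sum in every library). The libraries Plasmax-TE replicate 1 and, with iron, Plasmax-TE+Fe replicate 2 stood apart from the other 10 libraries on the second principal component, at -36.8 and -33.5 against -7.47 to 19.7. Their library numbers, 87 and 88, are consecutive. The labels do not tell whether replicates were cultured separately, and the spread behind the p-values may therefore be technical. Hepatocyte markers were all present, 8 of 8, with a summed level of 32990 to 36220 CPM in EMEM, 10120 to 11130 in Plasmax, 19070 to 22340 in Plasmax-TE and 15010 to 16980 in Plasmax-TE+Fe. ALB alone averaged 17900, 4047, 10670 and 7741 CPM in these media. In Plasmax against EMEM 6 of the 8 markers fell, and SERPINA1 rose from 17.5 ± 2.25 to 31.6 ± 5.91 CPM. Without trace elements ALB, AFP, APOA1 and TF rose, SERPINA1 fell to 17.2 ± 7.18 CPM, and TTR, APOB and HNF4A did not pass. The part of these markers in the results was not tested. Of the markers of other cells, 0 of 6 endothelial, 3 of 5 immune and 2 of 6 stellate cell and fibroblast genes were among the deposited genes. The defining leukocyte markers PTPRC and CD3E and the fibroblast markers COL1A2, COL3A1, DCN and LUM were among those absent. Genes of low counts had been left out before deposit, so an absent gene may still have had reads. The immune sum, mostly LYZ, lay between 2115 and 2502 CPM in EMEM, 1231 and 1687 in Plasmax, 793 and 1672 in Plasmax-TE, and 1011 and 1725 in Plasmax-TE+Fe. The stellate and fibroblast sum was 17.5 to 26.4 CPM in EMEM and at most 10.97 CPM in any other library.

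F2, F7, F10 and KNG1 fell in Plasmax against EMEM and rose in Plasmax-TE against Plasmax, while PROS1 did not pass any test. For this reason the stretches of 250 bases before the start sites of these 5 genes are shown. They come from a table of RefSeq start sites (GRCh38.p14, a later build than that of the counts) that matched 8 of the 9 symbols, SERPINC1 not among them. Capitals mark matches, on either strand, to short motifs of liver and metal-responsive factors. The lines read 5′ to 3′ in the direction of transcription.
F2 (chr11:46718963-46719212, plus strand): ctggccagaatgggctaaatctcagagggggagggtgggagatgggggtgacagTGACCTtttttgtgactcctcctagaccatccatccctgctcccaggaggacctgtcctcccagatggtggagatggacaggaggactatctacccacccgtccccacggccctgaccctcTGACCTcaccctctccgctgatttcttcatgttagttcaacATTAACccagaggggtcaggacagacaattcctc
F7 (chr13:113105541-113105790, plus strand): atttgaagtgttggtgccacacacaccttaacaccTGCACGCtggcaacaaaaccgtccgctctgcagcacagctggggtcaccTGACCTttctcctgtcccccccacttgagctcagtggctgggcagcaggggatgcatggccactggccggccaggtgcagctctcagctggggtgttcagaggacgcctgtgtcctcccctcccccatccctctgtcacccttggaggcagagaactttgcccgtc
F10 (chr13:113122549-113122798, plus strand): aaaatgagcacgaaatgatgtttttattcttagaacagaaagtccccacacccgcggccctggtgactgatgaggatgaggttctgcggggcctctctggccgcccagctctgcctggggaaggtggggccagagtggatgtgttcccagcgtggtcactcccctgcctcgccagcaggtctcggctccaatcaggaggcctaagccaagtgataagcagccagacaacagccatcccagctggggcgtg
KNG1 (chr3:186717109-186717358, plus strand): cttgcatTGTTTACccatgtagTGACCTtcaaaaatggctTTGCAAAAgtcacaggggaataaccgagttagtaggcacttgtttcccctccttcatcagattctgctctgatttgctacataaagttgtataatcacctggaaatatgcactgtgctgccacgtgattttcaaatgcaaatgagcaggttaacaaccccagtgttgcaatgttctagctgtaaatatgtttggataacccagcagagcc
PROS1 (chr3:93973897-93974146, minus strand): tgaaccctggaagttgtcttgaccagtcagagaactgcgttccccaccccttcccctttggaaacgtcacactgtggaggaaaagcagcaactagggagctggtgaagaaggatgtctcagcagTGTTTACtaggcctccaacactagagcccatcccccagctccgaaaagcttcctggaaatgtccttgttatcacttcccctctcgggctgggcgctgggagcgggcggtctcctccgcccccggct
The motifs searched were GTTAAT (HNF1 half-site), CAAAGTNCA (HNF4), TGTTTAC (forkhead), TTGCNNAA (C/EBP), TATAAA (core promoter box), AGGTCA (nuclear receptor half-site), TGCGCNC and TGCACNC (metal response element cores). AGGTCA, which these windows hold as its reverse complement TGACCT, was found in F2, F7 and KNG1 and in 12.1% of all 35097 windows of this length. F2 also held the HNF1 half-site, as ATTAAC (6.23% of windows), F7 the core TGCACNC (9.86%), and KNG1 a forkhead (2.98%) and a C/EBP match (9.05%). The PROS1 window held a forkhead match as well, and none of these letters occurred in the F10 window. The windows of F5 and PROC are not shown. A C/EBP match occurred before a start site of PROC, and no match in the F5 window. F7, F10 and PROZ are neighbours on chromosome 13, and no matches overlapped.

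A level that differs among the 4 media at all was found for 5 of the 8 genes, against 18.0% of the 10459 genes tested. The edgeR adjusted p of this joint test was 7.7e-06 for F10, 0.00059 for SERPINC1, 0.0045 for KNG1, 0.0049 for F7 and 0.016 for F2. PROC (edgeR adjusted p = 0.18), PROS1 (0.48) and F5 (0.78) did not pass. In bulk RNA, fewer cells that make a transcript and less of it per cell cannot be told apart. The plot of levels by library shows every value.

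**Figure D1:**
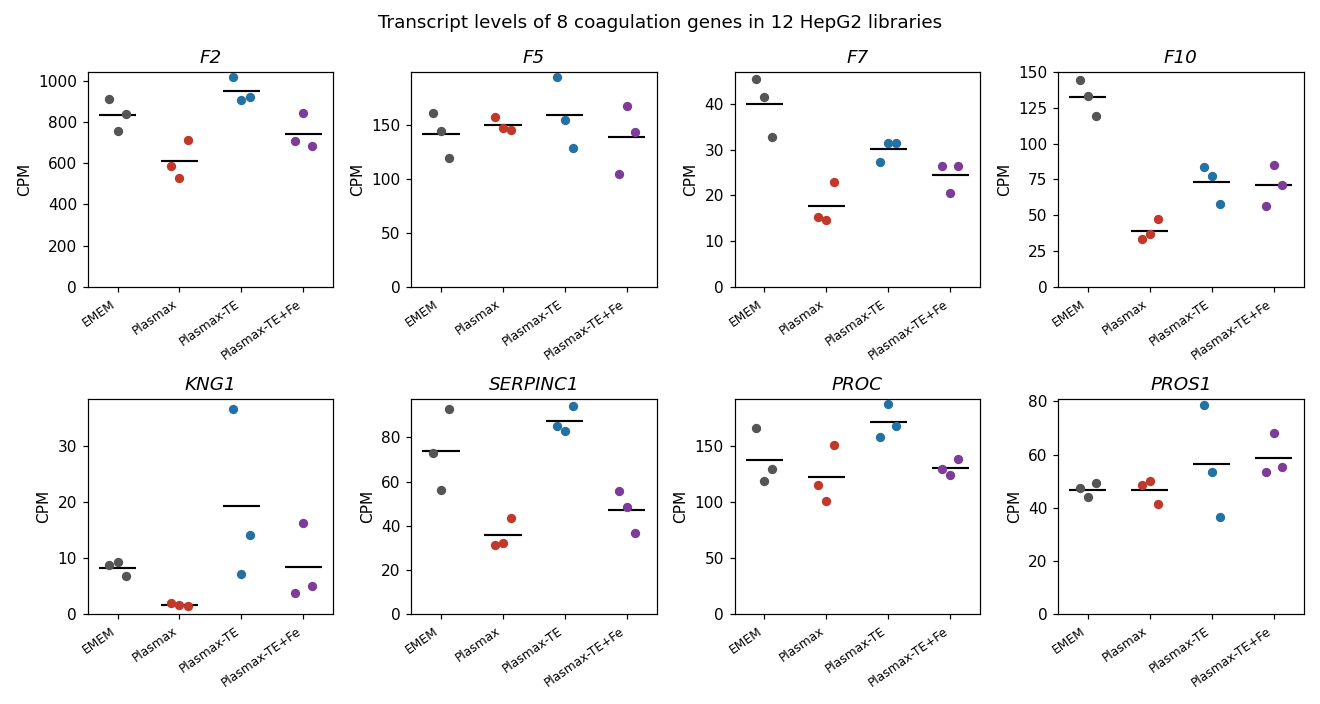
Level of each of the 8 genes in CPM (vertical axes, from 0, with a scale of its own per gene) in the 3 libraries of each medium; points are libraries from replicate 1 on the left to replicate 3 on the right, and bars are means. F2, F7, F10, KNG1 and SERPINC1 lie lower in all 3 Plasmax libraries than in all EMEM and all Plasmax-TE libraries, while F5, PROC and PROS1 overlap between EMEM and Plasmax.

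F10 (ENSG00000126218), factor X, whose active form cleaves prothrombin, stood at 144.5, 133 and 119 CPM in EMEM. In Plasmax it stood at 33.3, 37.1 and 47.1 CPM, in Plasmax-TE at 83.9, 77.6 and 58.1 CPM, and in Plasmax-TE+Fe at 56.3, 84.9 and 71.0 CPM. Every EMEM library was above every library of the other media, and every Plasmax library below all others, while the media lacking trace elements overlapped each other. The mean fell from 132 ± 12.7 CPM (SD, n = 3) with EMEM to 39.2 ± 7.15 CPM with Plasmax, or by a log2 fold change of -1.79 ± 0.19 (SE, 3.45-fold lower, edgeR adjusted p = 1.4e-06). It rose to 73.2 ± 13.5 CPM without trace elements (log2 fold change 0.89 ± 0.19, edgeR adjusted p = 0.0052), and stayed below EMEM there (-0.90 ± 0.18, edgeR adjusted p = 0.0039). With iron added back it stood at 70.8 ± 14.3 CPM, which differed from Plasmax-TE by -0.06 ± 0.18 (95% interval -0.44 to 0.32). In order of level EMEM was highest, then Plasmax-TE and Plasmax-TE+Fe, which did not differ beyond their spread, and Plasmax was lowest.

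F7 (ENSG00000057593), factor VII, had 45.5, 41.5 and 32.8 CPM in EMEM and 15.4, 14.6 and 22.9 CPM in Plasmax. It had 27.4, 31.4 and 31.4 CPM in Plasmax-TE and 26.5, 20.5 and 26.3 CPM in Plasmax-TE+Fe. EMEM was the highest medium and Plasmax the lowest, without overlap between these or between Plasmax and Plasmax-TE. The mean fell from 39.9 ± 6.51 to 17.6 ± 4.57 CPM (log2 fold change -1.20 ± 0.23, 2.29-fold lower, edgeR adjusted p = 0.00088) and rose to 30.1 ± 2.32 CPM without trace elements (0.76 ± 0.24, edgeR adjusted p = 0.043). This rise was just past the threshold. It was lost in DESeq2 (adjusted p = 0.056), with the replicate block (edgeR adjusted p = 0.054) and with only the 6 libraries compared (edgeR adjusted p = 0.061). It was also lost without any 1 of 7 libraries, EMEM 1 or 2, Plasmax 1 or 2, Plasmax-TE 2 or 3, or Plasmax-TE+Fe 3. Its lowest value was 0.59, without Plasmax replicate 2 (edgeR adjusted p = 0.2). The order of the means was EMEM, Plasmax-TE, Plasmax-TE+Fe (24.5 ± 3.38 CPM) and Plasmax. No medium passed the test against the next, although the F7 libraries of Plasmax-TE overlapped with neither those of EMEM, all higher, nor those of Plasmax-TE+Fe, all lower.

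F2 (ENSG00000180210), prothrombin, was at 911, 759 and 839 CPM in EMEM and at 589, 529 and 713 CPM in Plasmax. It was at 1020, 908 and 924 CPM in Plasmax-TE and at 708, 842.5 and 683 CPM in Plasmax-TE+Fe. Plasmax-TE held 3 of the 4 highest values, EMEM replicate 1 the other, and its libraries did not overlap those of Plasmax or Plasmax-TE+Fe. F2 fell in Plasmax from 836 ± 76.1 to 610.3 ± 93.7 CPM (log2 fold change -0.50 ± 0.15, 1.41-fold lower, edgeR adjusted p = 0.019). Without trace elements it rose to 951 ± 60.5 CPM (0.64 ± 0.15, 1.56-fold, edgeR adjusted p = 0.008). The fall was lost without EMEM 1 or 3 or Plasmax 1 or 2, where it ranged from -0.49 to -0.36 (edgeR adjusted p = 0.059 to 0.13), and the rise was lost without Plasmax 2 (0.51, edgeR adjusted p = 0.072). Plasmax-TE differed from EMEM by 0.14 ± 0.14 (95% interval -0.16 to 0.44). The order was Plasmax-TE, EMEM, Plasmax-TE+Fe (745 ± 85.6 CPM) and Plasmax, again with no neighbours apart beyond their spread.

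KNG1 (ENSG00000113889), kininogen, is the precursor of the vasodilator bradykinin. Its high-molecular-weight form, which counts per gene do not set apart, is a cofactor of contact activation. KNG1 had 8.72, 9.23 and 6.83 CPM in EMEM (14, 22 and 15 counts) and 1.92, 1.57 and 1.35 CPM in Plasmax, with 3 counts in each library. In Plasmax-TE it had 36.5, 7.18 and 14.1 CPM (64, 16 and 27 counts), and in Plasmax-TE+Fe 3.78, 16.2 and 4.97 CPM (9, 30 and 10 counts). The highest library of each of these 2 media was the one that stood apart on the second principal component. Between EMEM (8.26 ± 1.27 CPM) and Plasmax (1.61 ± 0.29 CPM) KNG1 fell (log2 fold change -2.39 ± 0.72, edgeR adjusted p = 0.023). This call was lost in limma-voom (adjusted p = 0.06) and without EMEM 1 or 2 or Plasmax 2 or 3, at -2.35 to -2.29 (edgeR adjusted p = 0.052 to 0.076). Without trace elements it rose to 19.3 ± 15.3 CPM (3.51 ± 0.65, edgeR adjusted p = 0.0017), the 6th highest log2 fold change of the 10459 genes. Over summed counts the Plasmax-TE level was 11.5 times that of Plasmax (95% interval 5.84 to 25.9) and the EMEM level 5.22 times that of Plasmax (2.55 to 12.1). Those intervals cover counting error only. Without both libraries that stood apart the rise was 2.73 on the log2 scale and still passed (edgeR adjusted p = 0.00099). EMEM and Plasmax-TE+Fe (8.32 ± 6.87 CPM) did not differ beyond their spread (-0.10 ± 0.53, 95% interval -1.20 to 1.01).

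F5 (ENSG00000198734), factor V, the cofactor that activated factor X needs to cleave prothrombin, had 161, 145 and 120 CPM in EMEM and 157.5, 147 and 146 CPM in Plasmax. It had 195, 155 and 129 CPM in Plasmax-TE and 105, 168 and 144 CPM in Plasmax-TE+Fe. All 4 media overlapped, with means of 142 ± 20.8, 150.2 ± 6.33, 160 ± 33.4 and 139 ± 31.8 CPM. No comparison passed for F5. The 95% interval of its log2 fold change was -0.32 to 0.39 for Plasmax against EMEM and -0.27 to 0.44 for Plasmax-TE against Plasmax, which leaves room for changes smaller than those of F7 and F10.

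Among the inhibitors, SERPINC1 (ENSG00000117601), antithrombin, which blocks thrombin and activated factor X, had 72.9, 56.2 and 92.8 CPM in EMEM and 31.4, 32.4 and 43.5 CPM in Plasmax. It had 85.03, 83.0 and 94.2 CPM in Plasmax-TE and 55.9, 48.7 and 36.8 CPM in Plasmax-TE+Fe. All Plasmax-TE libraries lay above all libraries of Plasmax and Plasmax-TE+Fe. SERPINC1 fell in Plasmax from 74.0 ± 18.3 to 35.8 ± 6.75 CPM (log2 fold change -1.08 ± 0.22, 2.12-fold lower, edgeR adjusted p = 0.0013). It rose to 87.4 ± 5.96 CPM without trace elements (1.28 ± 0.22, 2.43-fold, edgeR adjusted p = 0.00089), and stood at 47.1 ± 9.67 CPM with iron added back. The order was Plasmax-TE, EMEM, Plasmax-TE+Fe and Plasmax, and of the neighbours EMEM and Plasmax-TE+Fe differed beyond their spread (-0.70 ± 0.21, edgeR adjusted p = 0.04). That last difference was lost in 8 of 23 alternatives, among them the fit without EMEM replicate 3 (-0.48, edgeR adjusted p = 0.24).

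PROC (ENSG00000115718), protein C, which once activated cleaves factor V, had 166, 119 and 130 CPM in EMEM and 115, 101 and 151 CPM in Plasmax. It had 159, 188 and 168 CPM in Plasmax-TE and 129.5, 124 and 139 CPM in Plasmax-TE+Fe. All Plasmax-TE values lay above those of Plasmax and Plasmax-TE+Fe, whereas EMEM and Plasmax overlapped. The log2 fold change of Plasmax against EMEM was -0.21 ± 0.18 (95% interval -0.59 to 0.17), and that of Plasmax-TE against Plasmax was 0.48 ± 0.18, which did not pass (edgeR adjusted p = 0.088). It did pass in 3 alternatives: with the run of library numbers as a block (0.50, edgeR adjusted p = 0.044), without both libraries that stood apart (0.57, edgeR adjusted p = 0.043) and without Plasmax replicate 3 (0.71, edgeR adjusted p = 0.018).

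PROS1 (ENSG00000184500), protein S, the cofactor of protein C, had 47.4, 44.0 and 49.1 CPM in EMEM and 48.7, 50.2 and 41.3 CPM in Plasmax. It had 78.8, 53.4 and 36.6 CPM in Plasmax-TE and 53.4, 68.1 and 55.1 CPM in Plasmax-TE+Fe. EMEM and Plasmax gave nearly equal means, 46.8 ± 2.59 and 46.7 ± 4.74 CPM, with a 95% interval of the log2 fold change of -0.48 to 0.36. No comparison passed. Plasmax-TE spread widest, and its highest library was again replicate 1. The human genome holds a pseudogene closely similar to PROS1, and no source used here says how reads matching both were counted, so these levels are uncertain.

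In Plasmax against EMEM, which asks how a plasma-like medium changes cells kept in a standard one, 5 of the 8 genes fell, 0 rose and 3 did not pass, against 21.4% of all genes tested (11.5% lower). Those that fell were F2, F7, F10, KNG1 and SERPINC1. These are 4 of the 5 procoagulant members, with KNG1 counted for its high-molecular-weight form, and 1 of the 3 anticoagulant ones. Of the 5 vitamin K-dependent members, F2, F7 and F10 fell and PROC and PROS1 did not pass. For the same 5 genes every Plasmax library lay below every EMEM library, which held for 18.2% of all genes. The median log2 fold change of the 8 was -0.79, against -0.01 over all genes. The 5 calls became 3 without EMEM replicate 1 or Plasmax replicate 2.

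Leaving out the trace elements (Plasmax-TE against Plasmax) gave 5 genes that rose, 0 that fell and 3 that did not pass, where 11.2% of all genes were called (5.61% higher). They were again F2, F7, F10, KNG1 and SERPINC1. Both comparisons use the same Plasmax libraries, so a high or low Plasmax value enters both with opposite sign. Libraries did not overlap for 6 of 8 genes, PROC being the sixth, against 15.0% of all genes in this direction. The median was 0.70, against 0.02 over all genes. The 5 calls became 3 without Plasmax replicate 2. The contrast of Plasmax-TE with EMEM does not use the Plasmax libraries: there F10 fell, the other 7 did not pass, and 4.81% of all genes were called (3.19% lower).

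**Figure D2:**
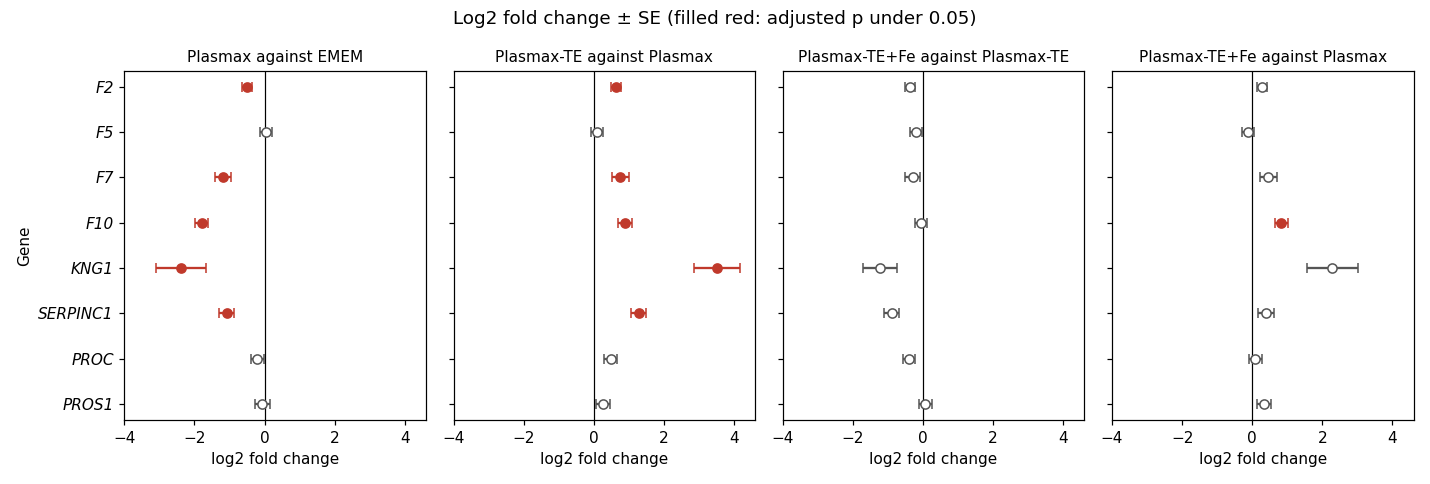
Log2 fold change (horizontal axes) of each gene in 4 comparisons, with bars of ± SE and filled red points where the adjusted p of edgeR was under 0.05. F2, F7, F10, KNG1 and SERPINC1 are left of 0 in Plasmax against EMEM and right of 0 in Plasmax-TE against Plasmax; only F10, at 0.83, is filled in the comparison of Plasmax-TE+Fe with Plasmax, and no gene is filled in that with Plasmax-TE.

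Adding iron back (Plasmax-TE+Fe against Plasmax-TE) gave 0 calls among the 8 genes in edgeR, against 0.258% of all genes. At an unadjusted p under 0.05 there were 4, all of them lower with iron (F2, KNG1, SERPINC1 and PROC), where 5.13% of all genes were lower at that level. DESeq2 called 1 and limma-voom 0. SERPINC1 came nearest, at a log2 fold change of -0.89 ± 0.21 (unadjusted p = 0.00037, edgeR adjusted p = 0.074, rank 53 of 10459 by p). It was the gene that DESeq2 called (adjusted p = 0.022), and it passed in edgeR with the run of library numbers as a block (-0.92, adjusted p = 0.0036). The other values were -0.36 ± 0.14 for F2 (edgeR adjusted p = 0.43), -1.22 ± 0.48 for KNG1 (0.42) and -0.40 ± 0.18 for PROC (0.5). F7 differed by -0.30 ± 0.22, F5 by -0.21 ± 0.17, F10 by -0.06 ± 0.18 and PROS1 by 0.07 ± 0.20. Without Plasmax-TE+Fe replicate 2, one of the libraries that stood apart, 2 genes passed in edgeR, KNG1 (-2.06, adjusted p = 0.036) and SERPINC1 (-0.88, adjusted p = 0.046). For F2, F7, SERPINC1 and PROC every library with iron lay below every library without, as for 6.52% of all genes.

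Within the 3 runs of 4 consecutive library numbers, each of which holds 1 library of every medium, SERPINC1 was lower with iron by 0.79, 1.15 and 0.74 on the log2 scale. F2 differed by -0.28, -0.41 and -0.38, PROC by -0.35, -0.43 and -0.37, and KNG1 by -1.12, -0.46 and -1.66. F5 and F7 were also lower with iron in 3 of 3 runs, F10 in 2 and PROS1 in 1. The labels do not say what these runs are. They differ from the replicate numbers for Plasmax-TE+Fe, whose replicates 2, 3 and 1 fall in runs 1, 2 and 3.

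**Figure D3:**
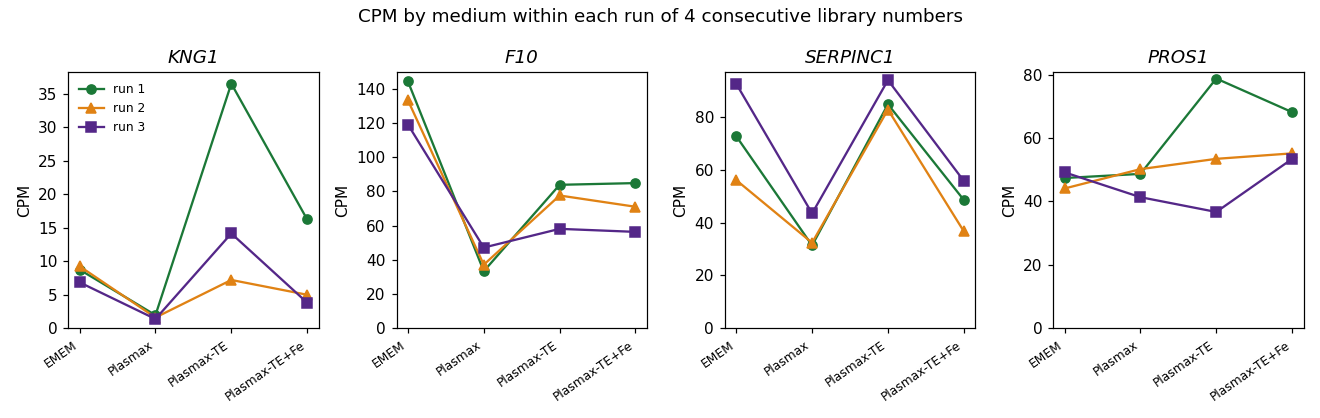
Level in CPM (vertical axes, from 0) of KNG1, F10, SERPINC1 and PROS1 by medium, with 1 line for each of the 3 runs of 4 consecutive library numbers. For KNG1, F10 and SERPINC1 all 3 lines drop from EMEM to Plasmax and climb to Plasmax-TE. For KNG1 and SERPINC1 all 3 drop again with iron, and the lines of PROS1 cross.

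Set against Plasmax, Plasmax-TE+Fe had 1 gene higher, F10 (log2 fold change 0.83 ± 0.19, edgeR adjusted p = 0.034), and 7 that did not pass, while 1.20% of all genes were called (0.507% higher). That call was lost without Plasmax 1 or 2 or Plasmax-TE+Fe 2 or 3 (0.71 to 0.80, edgeR adjusted p = 0.092 to 0.2) and without both libraries that stood apart (0.71, edgeR adjusted p = 0.068). KNG1 was at 2.29 ± 0.72 (edgeR adjusted p = 0.15), with a count ratio of 4.98 (95% interval 2.42 to 11.5). Against EMEM the same medium had 3 genes lower, F10 (-0.96 ± 0.18, edgeR adjusted p = 0.0012), F7 (-0.74 ± 0.22, 0.035) and SERPINC1 (0.04, as given above), and 9.65% of all genes were called (5.98% lower). PROS1 was higher than in EMEM without overlap but did not pass (0.27 ± 0.20, edgeR adjusted p = 0.43), where 16.1% of all genes were higher without overlap. Only F10 was called without EMEM replicate 1, Plasmax-TE+Fe replicate 2 or Plasmax-TE+Fe replicate 3, and F7 was also lost without EMEM replicate 2 or Plasmax-TE+Fe replicate 1 (edgeR adjusted p = 0.1 and 0.06).

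Other clotting factors were represented by 5 of 12 listed genes, F11, F12 and the fibrinogen chains FGA, FGB and FGG. In Plasmax against EMEM 0 of the 5 passed in edgeR (median 0.21), with 1 at an unadjusted p under 0.05, against 34.2% of all genes. Fibrinogen, the protein that thrombin turns into the clot, rose without trace elements. FGB went from 765 ± 169 to 1485 ± 397 CPM (log2 fold change 0.95 ± 0.20, edgeR adjusted p = 0.0044), FGG rose by 0.68 ± 0.17 (0.014) and FGA by 0.61 ± 0.18 (0.036). With iron added back FGB fell to 749 ± 193 CPM (-0.99 ± 0.20, edgeR adjusted p = 0.03), the 1 gene of the 5 that passed there. That call was lost with only the 6 libraries of these media in the fit (edgeR adjusted p = 0.14) and without EMEM 3, any 1 Plasmax-TE library, or Plasmax-TE+Fe 1 or 3 (-1.08 to -0.80, edgeR adjusted p = 0.052 to 0.29). The rises of FGA and FGG did not pass without Plasmax replicate 2 (0.40 and 0.58, edgeR adjusted p = 0.21 and 0.09) or without Plasmax-TE replicate 1, one of the libraries that stood apart (0.49 and 0.54, edgeR adjusted p = 0.13 and 0.061). FGA was also lost without both libraries that stood apart (0.49, edgeR adjusted p = 0.08) and without Plasmax 1 or Plasmax-TE 2 (0.65 and 0.61, edgeR adjusted p = 0.068 and 0.079).

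Of 12 other inhibitors and their cofactors 8 were tested, and in Plasmax against EMEM 7 fell and 1 rose (median -1.004). TFPI, which blocks factor VII with tissue factor, fell from 1003 ± 119 to 501 ± 81.9 CPM (-1.06 ± 0.14, edgeR adjusted p = 2.9e-05). A2M, a broad protease inhibitor, fell by 1.10 ± 0.13 (edgeR adjusted p = 7e-06) and SERPIND1, heparin cofactor II, by 1.06 ± 0.15 (edgeR adjusted p = 5.6e-05). PROZ, protein Z, the vitamin K-dependent neighbour of F7 and F10, fell from 9.76 ± 3.42 to 1.18 ± 1.20 CPM. It had 1 to 4 counts per Plasmax library, and over summed counts its EMEM level was 9.07 times that of Plasmax (95% interval 3.93 to 25.7). PROZ passed the filter on low counts only through its EMEM libraries, at 5.92 to 12.5 CPM. A fall from EMEM was thereby favoured, and its call is among the 7. SERPING1, the C1 inhibitor of the contact and complement proteases, was the exception and rose by 1.08 ± 0.36 (edgeR adjusted p = 0.037). Its rise was lost in limma-voom (adjusted p = 0.061) and without any 1 EMEM library or Plasmax 1 or 3 (0.85 to 1.17, edgeR adjusted p = 0.056 to 0.15). Without trace elements 6 of the 8 rose and 0 fell (median 0.72), among them SERPING1 (1.77 ± 0.30, edgeR adjusted p = 0.001). Without Plasmax replicate 2 only 3 of these 6 calls were left, SERPIND1 (0.52, edgeR adjusted p = 0.08), A2M (0.41, 0.11) and PROZ (1.69, 0.19) being lost, and PROZ was lost in 12 of 21 alternatives. C4BPA and C4BPB, the chains of the C4b-binding protein that carries protein S in plasma, rose by 1.46 ± 0.27 and 0.77 ± 0.14 (edgeR adjusted p = 0.0016 for both).

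Fibrinolysis genes went the other way in part: of 10 listed 5 were tested, of which 2 rose and 0 fell in edgeR in Plasmax against EMEM. At an unadjusted p under 0.05 there were 3, against 34.2% of all genes. Of those 3, CPB2 was lower in Plasmax (-0.45 ± 0.17, edgeR unadjusted p = 0.016, adjusted p = 0.065). In Plasmax PLAUR, the urokinase receptor, rose from 4.89 ± 4.51 to 32.5 ± 13.9 CPM (2.57 ± 0.40, edgeR adjusted p = 1e-04). SERPINE2, protease nexin 1, which also inhibits thrombin, rose from 84.1 ± 22.9 to 575 ± 55.6 CPM (2.72 ± 0.20, edgeR adjusted p = 1.5e-08). Without trace elements 3 of the 5 fell, SERPINE2 by 1.84 ± 0.19, PLAUR by 1.63 ± 0.36, and S100A10, a plasminogen receptor subunit, by 1.22 ± 0.26 (edgeR adjusted p = 5.6e-06, 0.0062 and 0.0048). The falls of PLAUR and S100A10 were lost without Plasmax replicate 2 (-1.27 and -0.91, edgeR adjusted p = 0.061 and 0.052). The median was 0.20 in Plasmax against EMEM and -1.22 without trace elements.

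**Figure D4:**
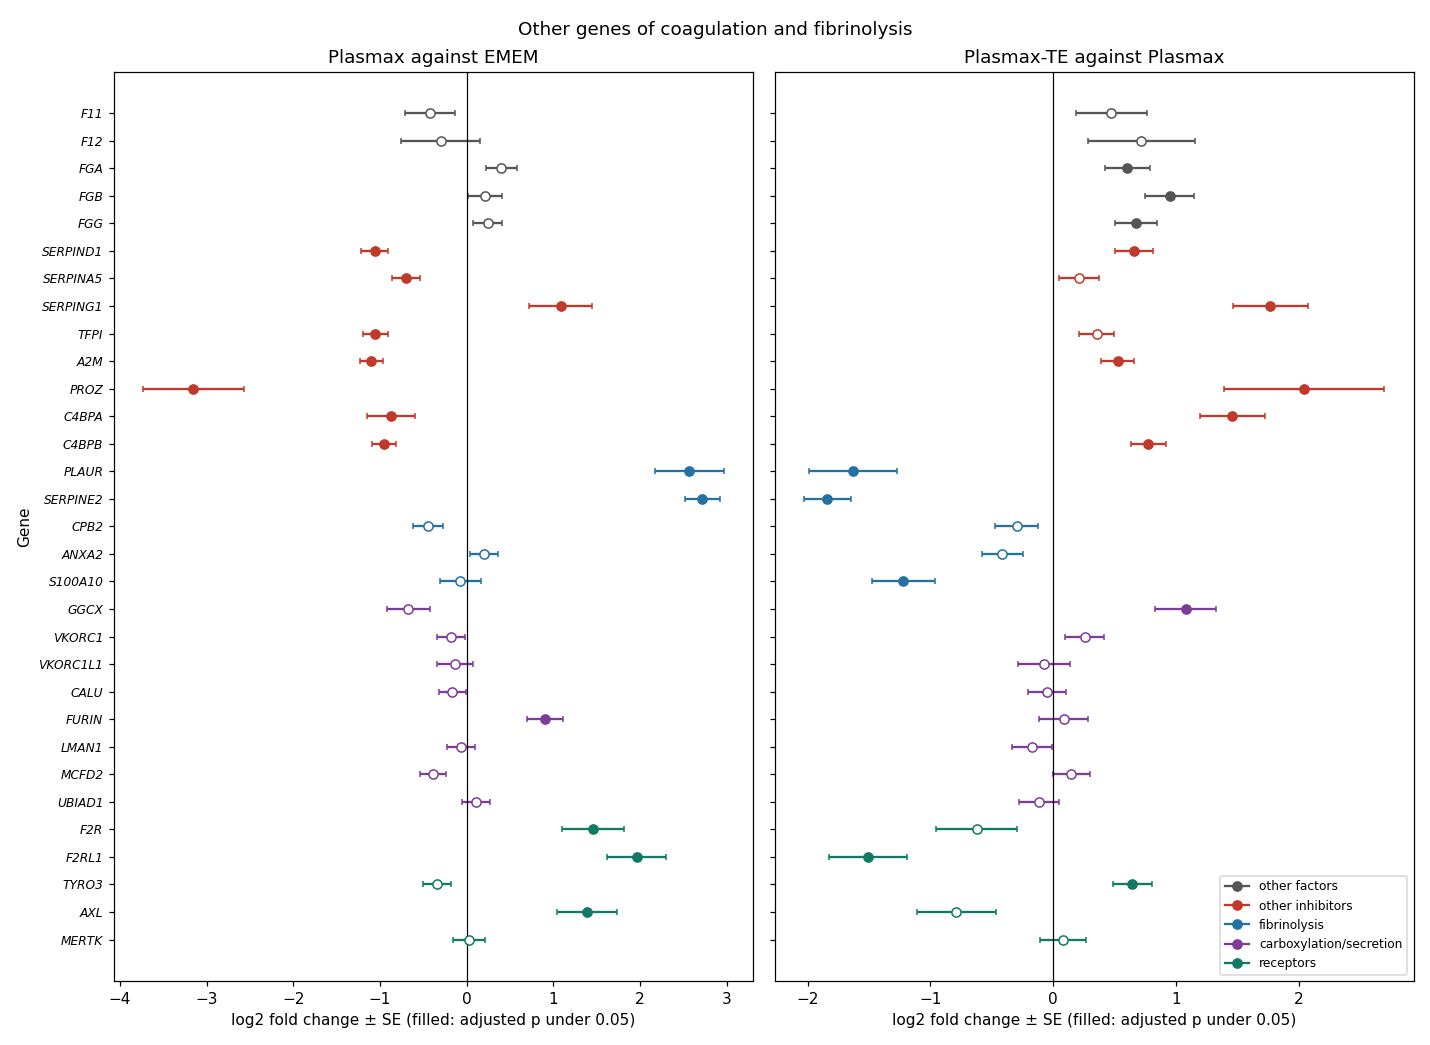
Log2 fold change with bars of ± SE (horizontal axes) of the other genes of coagulation and fibrinolysis that were tested, in Plasmax against EMEM and Plasmax-TE against Plasmax; colours give the list and filled points an adjusted p under 0.05 in edgeR. In the red group of inhibitors 7 of 8 points are filled left of 0 in Plasmax against EMEM and 6 right of 0 in Plasmax-TE against Plasmax.

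Of the genes for carboxylation, processing and secretion of clotting factors, 1 of 8 tested passed in each of the same comparisons, where 21.4% and 11.2% of all genes were called. FURIN, which cleaves precursor proteins, rose in Plasmax by 0.90 ± 0.21 (edgeR adjusted p = 0.0041). GGCX, the carboxylase itself, rose without trace elements from 66.9 ± 4.14 to 143 ± 61.5 CPM (1.08 ± 0.25, edgeR adjusted p = 0.0085). GGCX no longer passed without Plasmax-TE replicate 1 (0.72, edgeR adjusted p = 0.055). Of 5 receptors tested, the thrombin receptor F2R (1.46 ± 0.36, edgeR adjusted p = 0.0063), the related receptor F2RL1 (1.96 ± 0.33, 0.00029) and the protein S receptor family member AXL (1.38 ± 0.34, 0.0069) rose in Plasmax. F2RL1 fell without trace elements by 1.51 ± 0.32 (edgeR adjusted p = 0.0049), while TYRO3, a receptor of protein S, rose by 0.64 ± 0.16 (0.014). Without Plasmax replicate 2 F2R (1.15, edgeR adjusted p = 0.057) did not pass in Plasmax, nor F2RL1 (-1.11, 0.055) and TYRO3 (0.54, 0.097) without trace elements, and AXL did not pass without EMEM replicate 3 (1.11, 0.05).

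Liver transcription regulators, 15 of 18 tested, include factors known to act on promoters of clotting genes. In Plasmax against EMEM 5 fell and 1 rose (median -0.44). NR1H4, the bile acid receptor, fell by 1.43 ± 0.21 (edgeR adjusted p = 6.4e-05), FOXA3 by 0.93 ± 0.18 (0.00079) and FOXA1 by 1.39 ± 0.28 (0.0013). Without trace elements 6 rose and 0 fell (median 0.50), led by NR1H4 (1.32 ± 0.21, edgeR adjusted p = 0.00056), FOXA1 (1.43 ± 0.28, 0.0027) and CEBPA (1.56 ± 0.32, 0.0041). The other 3, CEBPB, FOXA2 and FOXA3, were lost without Plasmax replicate 2 (0.59, 0.54 and 0.53, edgeR adjusted p = 0.16, 0.089 and 0.13) and without Plasmax-TE replicate 2 (0.65, 0.45 and 0.64, edgeR adjusted p = 0.088, 0.1 and 0.062), and CEBPB in 14 of 23 alternatives. With iron added back 0 of the 15 passed in edgeR (median -0.17), and 4 had an unadjusted p under 0.05, against 9.31% of all genes. The same held, after adjustment, for the other inhibitors (7 of 8 at an unadjusted p under 0.05, median -0.53), fibrinolysis (2 of 5), carboxylation (1 of 8) and the receptors (1 of 5).

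Averaged over the 8 genes, each put on a common scale of mean 0 and SD 1 over the 12 libraries, the level was 0.15 to 0.76 in EMEM and -1.18 to -0.54 in Plasmax. It was 0.21 to 1.18 in Plasmax-TE and -0.47 to 0.29 in Plasmax-TE+Fe. The genes whose log2 CPM followed this average most closely, of 9924 ranked, were LRRC3 (Pearson r = 0.967 over 12 libraries), CCDC69 (0.963), ATP5MC2 (0.958), RGN (0.953), BET1L (0.940) and METTL7A (0.940). These values describe libraries that fall into 4 media and share their depth, and they carry no test. LRRC3, for example, had means of 34.9, 14.4, 52.4 and 27.9 CPM in EMEM, Plasmax, Plasmax-TE and Plasmax-TE+Fe, and RGN, regucalcin, had 66.5, 32.9, 70.8 and 46.1 CPM. Not every member followed the average of the others closely. For F5 and PROS1 Pearson r with it was 0.24 and 0.22, against 0.59 (PROC) to 0.94 (F2) for the rest.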

How the data were processed

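QuantSeq 3′ libraries were prepared from the total RNA of HepG2 cells in 4 media, 3 per medium. Per the submitters' processing notes, reads were handled with STAR 2.7.5b and featureCounts 1.6.3, beside limma 3.40.6, cutadapt 1.16 and FastQC 0.72, on build hg19 (GRCh37). Neither annotation nor strand setting is given in the sources used here. The authors deposited raw whole-number counts for each gene. Of 10994 entries, 54 repeats with identical counts were dropped. Each gene kept had 3 or more libraries at 4.04 CPM or above, so genes of low counts had been left out before deposit.

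The analysis used edgeR 4.0.16 under R 4.3.3: filterByExpr (minimum count 10, minimum total 15; 481 genes removed, 10459 tested), TMM factors, and 1 quasi-likelihood fit of 12 libraries (8 residual degrees of freedom), two-sided. Genes were called at a Benjamini-Hochberg adjusted p under 0.05 over all genes tested. The SE is the size of the log2 fold change over the root of F, and log2 CPM used a prior count of 2. Levels are CPM without TMM factors. With 3 libraries against 3 the smallest exact permutation p is 0.1, and the model's p-values rest on a spread shared across genes. Libraries of 1 medium differed by more than sampling noise. The scripts were tested on simulated data.

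The members, the lists and the rule for named genes were chosen with earlier results of these data known. That rule names every member, up to 3 called genes of lowest p per list and comparison, and the 6 genes most like the members' average with a mean of at least 5 CPM. PROZ, SERPING1 and CPB2 in Plasmax, PLAUR without trace elements and single cell type markers were named after their values were seen. So were SERPIND1, A2M, CEBPB, FOXA2 and FOXA3 without trace elements. In 2 of the lists 1 gene each is not reported here and is left out of the list's counts and medians. Tried as alternatives were DESeq2 1.42.0, limma-voom (limma 3.58.1), RLE factors or plain library sizes, other filters, a replicate block, a block for the runs of 4 consecutive library numbers, leaving out each library in turn or both libraries that stood apart, and only the 6 libraries compared.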

Additional observations from a re-analysis of the deposited data

How the results depend on the processing

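Of 15 member results that passed, 8 did so in all alternatives: F10 in Plasmax, Plasmax-TE and Plasmax-TE+Fe against EMEM and in Plasmax-TE against Plasmax, F7 in Plasmax against EMEM, KNG1 in Plasmax-TE against Plasmax, and SERPINC1 in Plasmax against EMEM and Plasmax-TE against Plasmax. Over the 15, 304 of 345 alternative values passed, 41 did not, and 0 changed direction. Of the 33 results that did not pass, 8 of 758 alternative values passed and 19 changed direction.

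The number of members called for iron (Plasmax-TE+Fe against Plasmax-TE, 0) became 1 with DESeq2 and 1 with the run block, and ranged from 0 to 2 without 1 library. For Plasmax-TE+Fe against Plasmax (1) it was 0 without both libraries that stood apart, 0 with only the 6 libraries compared, 2 with the run block (F10 and KNG1), and 0 to 1 without 1 library. Without 1 library it ranged from 3 to 5 for Plasmax against EMEM, 3 to 6 for Plasmax-TE against Plasmax, 1 to 3 for Plasmax-TE+Fe against EMEM, and 4 to 6 for the 4 media together.

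With the replicate block the count for Plasmax-TE+Fe against Plasmax fell to 0, and F7 in Plasmax-TE against Plasmax (edgeR adjusted p = 0.054) and SERPINC1 in Plasmax-TE+Fe against EMEM (0.05) were lost as well. Same-numbered libraries deviated together in every pair (r over 0.1) only for Plasmax-TE with EMEM (0.11 to 0.17), and for Plasmax-TE+Fe with Plasmax-TE the correlations were -0.43 to 0.15. Libraries of the same run correlated at 0.22 to 0.53 there, highest in run 1, which holds both libraries that stood apart. The labels say of neither number that it pairs the samples.

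Without both libraries that stood apart, results that had not passed changed sign for F5 (Plasmax-TE against Plasmax -0.0383, against EMEM -0.0062) and PROS1 (Plasmax-TE against EMEM -0.061). Without 1 library the sign of 12 such results was not fixed. For F5 these were Plasmax against EMEM (-0.0716 to 0.13), Plasmax-TE against EMEM (-0.00816 to 0.224) and Plasmax (-0.039 to 0.193), and Plasmax-TE+Fe against EMEM (-0.211 to 0.0615) and Plasmax (-0.243 to 0.0302). For PROS1 they were Plasmax-TE against EMEM (-0.0635 to 0.407) and Plasmax (-0.00151 to 0.469) and the addition of iron (-0.134 to 0.336). For PROC they were Plasmax-TE+Fe against EMEM (-0.232 to 0.0277) and Plasmax (-0.0634 to 0.311), for KNG1 Plasmax-TE+Fe against EMEM (-0.936 to 0.259), and for F10 the addition of iron (-0.176 to 0.0629).

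Counts over all genes moved by more than 1.5 times. With the run block they were 2835 for the 4 media together (1879 in the report's fit), 1859 for Plasmax-TE against Plasmax (1176), 372 for Plasmax-TE+Fe against Plasmax (126), 829 for Plasmax-TE (503) and 1569 for Plasmax-TE+Fe (1009) against EMEM. For iron (27) they were 152 with the run block, 81 with DESeq2, 99 without both libraries that stood apart and 0 with only the 6 libraries compared, where Plasmax-TE+Fe against Plasmax had 77. Leaving out 1 library gave 477 to 1577 for Plasmax-TE against Plasmax, 0 to 229 for iron, 31 to 170 for Plasmax-TE+Fe against Plasmax, and 259 to 678 and 606 to 1224 for Plasmax-TE and Plasmax-TE+Fe against EMEM. The cause was not tested.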
